A study of Mus musculus with 2 samples.

Results

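Dusp2 is 1 of the 33696 genes counted in a pair of single-cell RNA libraries from mouse tumours, and the results below describe its RNA and the genes found in the same cells. The row was taken by its symbol, Dusp2 (ENSMUSG00000027368), in both libraries. The KO library came from mice lacking Dusp2 (Dusp2-/-) and the WT library from wild-type mice. All mice carried tumours grown from LLC, the Lewis lung carcinoma line of the mouse, and the labels name no change to the Dusp2 gene of the implanted line. Cells are labelled as tumour-infiltrating lymphocytes, were captured with the 10x 3' kit version 3.1, and are given as polyA RNA for KO and total RNA for WT. Age, sex, number of animals, any sort, and the deleted piece of Dusp2 were not given in the sources used here. There is 1 library per genotype, so no comparison has a replicate check, no test was made, and genotype cannot be told apart from animal or library preparation.

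Dusp2 encodes a phosphatase of the nucleus, also called PAC-1, which removes phosphate from activated MAP kinases and so shortens their signal. It was first known as a gene switched on early after stimulation of lymphocytes, and myeloid cells use it during inflammatory activation. Its relatives Dusp1 and Dusp5 act on overlapping sets of MAP kinases and are themselves induced by the pathways they restrain. Immediate-early genes such as Fos, Jun and Ier2 are switched on by the same kinases within minutes of a stimulus, without new protein synthesis.

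In the GENCODE M21 annotation of GRCm38 (mm10), Dusp2 lies on the plus strand of chromosome 2, from 127336159 to 127338376. Its protein-coding transcript has 4 exons, of 479, 122, 220 and 796 bases, and the last exon holds the 3' untranslated region, near which a 3' kit reads. No other annotated gene overlaps it, and the nearest gene downstream on the same strand, Astl, starts after a gap of 263 bases. If the deleted piece leaves the 3' end in place, 3' reads alone are no check of the deletion.

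The 250 bases before the start of Dusp2 are shown because several genes that shared cells with it are AP-1 or serum response genes. They span chr2:127335909-127336158 on the plus strand (RefSeq table, GRCm38.p6), and capitals mark an E-box and a TATA-like run.
Dusp2 promoter: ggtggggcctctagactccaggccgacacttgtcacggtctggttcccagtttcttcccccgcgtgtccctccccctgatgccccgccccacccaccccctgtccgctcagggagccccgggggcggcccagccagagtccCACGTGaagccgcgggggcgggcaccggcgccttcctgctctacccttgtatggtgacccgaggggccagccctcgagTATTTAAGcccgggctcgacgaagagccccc

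These bases are 70.4% G or C, against a median of 52.4% over the 32851 promoters of that length in the table, 91.2% of which lie below Dusp2. The E-box CACGTG sits 109 to 104 bases before the start, and 6.02% of all promoters hold it on either strand. The run TATTTAAG sits 31 to 24 bases before the start and was searched only after the sequence had been read. It is in 0.913% of promoters. An EGR-type motif (GCGNGGGCG, in 4.70% of promoters) lies 98 to 90 bases before the start and overlaps 1 of 3 GC boxes (GGGCGG, in 32.7%). The AP-1 letters TGANTCA (6.75%), the CRE letters TGACGTCA (1.55%) and their core TGACG (17.8%), the NFAT core GGAAA (55.6%), TATAAA (12.4%) and the CArG box of serum response factor (1.47%) had no match on either strand in this window. A match is a description of letters, and its absence from 250 bases says nothing about the factor.

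The KO library holds 12744 barcodes and 101532711 UMIs, and the WT library 9890 barcodes and 113873249 UMIs. Filters kept 11359 KO cells, with a median of 4852 UMIs, and 9002 WT cells, with a median of 8432 UMIs. The barcodes shared by both libraries number 31. Cells were placed by gate genes into T (at least 2 UMIs of Cd3d and Cd3e), NK (at least 1 UMI of Ncr1 and Klrb1c, no Cd3), macrophage (at least 10 UMIs of Lyz2) and tumour (at least 3 UMIs of Hmga2 and Rhox5) cells, and cells in more than 1 lineage gate were left out (375 KO, 108 WT). Independent markers fitted the gates, and none of a gate's own markers was at 0. The 7 T markers summed to 4629 CPM (UMIs of a gene per 1000000 UMIs of the gate) in KO and 4326 CPM in WT T cells, and the 7 NK markers to 8124 and 8111 CPM in KO and WT NK cells. The 8 macrophage markers summed to 9568 and 9935 CPM in KO and WT macrophages, and the 7 tumour markers to 978 and 1106 CPM in KO and WT tumour cells. The lymphocyte label thus covers libraries that also hold tumour cells and macrophages. The libraries stand apart in plasma-cell RNA, whose 4 markers summed to 1628 CPM in KO and 94.4 CPM in WT T cells. They also differ in neutrophil genes within the macrophage gate, at 1500 CPM in KO and 62.7 CPM in WT. A B gate (at least 2 UMIs of Cd79a and Ms4a1) held 3931 KO and 9 WT cells. In the KO cells of this gate the 4 plasma-cell markers summed to 59130 CPM and the 5 B markers to 1580 CPM. The cells called B cells below are thus named by gate only.

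Dusp2 RNA was near 0 in the KO lymphocytes and macrophages and was as high in KO as in WT tumour cells. In KO T cells 26 Dusp2 UMIs in 16 of 1809 cells gave 2.67 CPM (95% interval 1.74 to 3.91), against 430 CPM (415 to 445) from 3001 UMIs in 776 of 1165 WT T cells. The log2 ratio, KO over WT, was -7.33 (-7.95 to -6.78). Intervals here and below cover counting error only.

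KO NK cells held 1 Dusp2 UMI in 174 cells (0.998 CPM), against 2502 UMIs in 362 of 406 WT NK cells (1066 CPM), a log2 ratio of -10.06 (-15.37 to -7.58). KO macrophages held 25 UMIs in 20 of 1718 cells (1.83 CPM), against 2801 UMIs in 1330 of 4271 WT macrophages (67.3 CPM), a log2 ratio of -5.20 (-5.83 to -4.64). In tumour cells the level was 77.1 CPM (74.1 to 80.3) in KO and 76.2 CPM (73.5 to 78.9) in WT, a log2 ratio of 0.02 (-0.06 to 0.10). Dusp2 was thus far lower in the 3 host gates of the KO library, while the interval for tumour cells spanned 0.

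The T subsets held between 0 and 17 Dusp2 UMIs each in KO. CD8 T cells had 4.32 CPM in KO and 579 CPM in WT, and CD4 T cells without Foxp3 had 0.926 and 231 CPM in KO and WT. Gamma-delta T cells had 2.32 CPM in KO and 259 CPM in WT. Regulatory T cells, gated by Foxp3, had 0 UMIs in KO and 130 CPM in WT, at least 32.7-fold lower in KO with a floor of 3 UMIs for the gate. Mature dendritic cells, which carry antigen to lymph nodes, had 0 UMIs in KO and 202 CPM in WT, at least 83.8-fold lower in KO. Type 1 dendritic cells, specialised in cross-presentation, had 0 UMIs in KO and 96.7 CPM in WT.

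**Figure D1:**
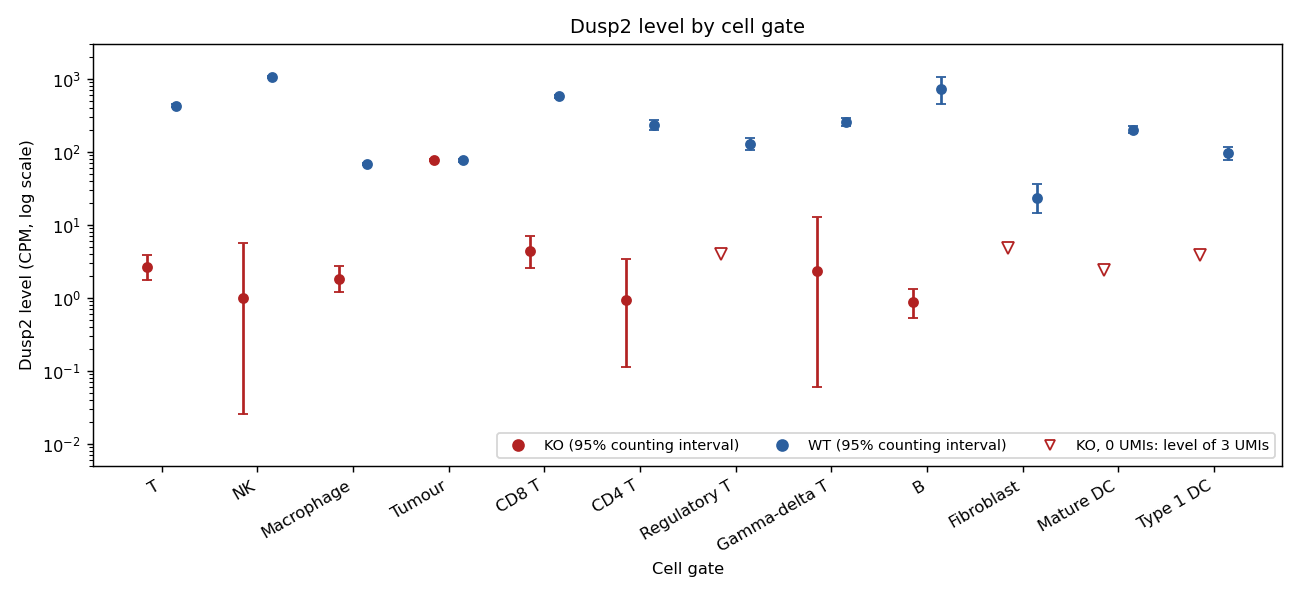
Dusp2 level (CPM, log axis) by cell gate in the KO (red) and WT (blue) libraries, with 95% exact Poisson intervals of the summed UMIs; open triangles stand at the level of 3 UMIs where KO had 0. KO lymphoid and myeloid gates sit at 4.32 CPM or below apart from those upper limits, and the tumour gate sits at 77.1 CPM in KO and 76.2 CPM in WT.

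Within the WT library NK cells stood highest at 1066 CPM, and only the 9 B cells had an interval reaching theirs (713 CPM from 24 UMIs, 12 of them in 1 cell). CD8 T cells followed at 579 CPM, then gamma-delta T cells at 259 CPM and CD4 T cells at 231 CPM, whose intervals overlapped. Mature dendritic cells overlapped CD4 T cells, and regulatory T cells overlapped type 1 dendritic cells. The dendritic and neutrophil gates could share cells with the macrophage gate. With each cell put in 1 gate, 24 of 65 type 1 dendritic cells stayed in theirs, with 49 of 96 UMIs. Of the mature dendritic cells 180 of 192 stayed. Neutrophils (90.1 CPM, 29 cells) overlapped both type 1 dendritic cells and tumour cells. Tumour cells stood above macrophages, 76.2 against 67.3 CPM, without overlap. Fibroblasts (23.3 CPM) and plasmacytoid dendritic cells (6.26 CPM) were lowest and overlapped each other.

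Each cell was then thinned to 2000 UMIs, leaving out shallower cells (227 KO and 31 WT T cells, 27 and 10 NK cells, 164 and 30 macrophages, 25 and 5 tumour cells). At this depth 0.392% of KO and 45.7% (42.8 to 48.6) of WT T cells held a Dusp2 UMI, and 0.204% of KO and 74.5% (69.9 to 78.7) of WT NK cells. Macrophages held one in 0.441% of KO and 11.3% (10.3 to 12.3) of WT cells, and tumour cells in 13.4% (11.6 to 15.3) of KO and 13.3% (11.6 to 15.1) of WT cells. Fibroblasts, taken as the low comparison, held one in 0 of 72 KO cells, which allows up to 4.17%, and in 2.26% (0.297 to 8.53) of 82 WT cells. WT macrophages and tumour cells were therefore above WT fibroblasts by intervals that did not overlap. The 72 KO fibroblasts are too few to set a background for the small KO shares. Without thinning the shares were 0.884% and 66.6% in KO and WT T cells, 0.575% and 89.2% in NK cells, 1.16% and 31.1% in macrophages, and 58.5% and 65.0% in tumour cells, at differing depths.

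Dusp2 was uneven from cell to cell. At least 2 UMIs were seen in 22.3% of WT T cells and 53.4% of WT NK cells, and at least 5 in 2.99% of WT T and 15.96% of WT NK cells. The 10% of WT T cells richest in Dusp2 held 45.8% of the T-cell Dusp2 UMIs, and the richest 10% of WT NK cells held 31.6%. The variance over the mean, which is 1 for a Poisson count, was 2.07 in WT T, 2.35 in WT NK and 1.43 in WT macrophages, and 1.49 and 1.51 in KO and WT tumour cells. The spread among tumour cells was thus alike in both libraries.

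**Figure D2:**
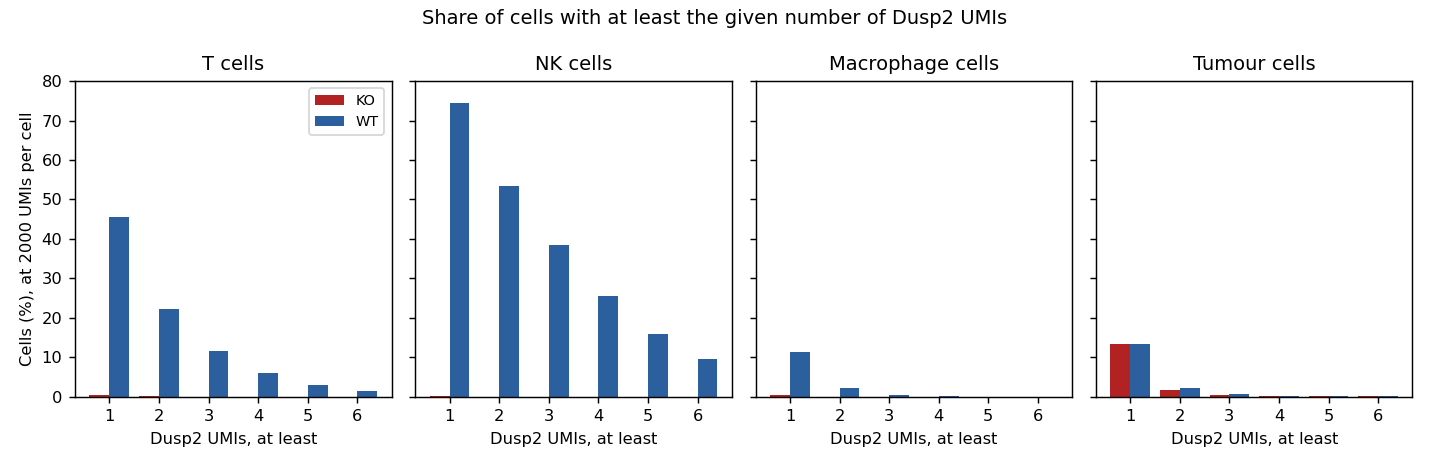
Percent of cells (y axis) with at least the given number of Dusp2 UMIs (x axis) after thinning to 2000 UMIs per cell, for 4 gates of the KO (red) and WT (blue) libraries. The KO and WT tumour bars are of similar height, with 1.82% and 2.29% of cells at 2 or more UMIs, while KO T, NK and macrophage cells are almost all at 0.

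Of the 2832 Dusp2 UMIs left in kept KO cells, 2465 (87.0%) lay in tumour cells and 278 (9.82%) in cells passing more than 1 lineage gate, 277 of these in cells with a UMI of Hmga2 or Rhox5. In all, 97.5% of the KO UMIs lay in cells with a UMI of either tumour gene. That share is largely fixed by the tumour gate, which is set by these 2 genes. T cells held 26 UMIs, macrophages 25, B cells 20, ungated cells 17 and NK cells 1. Cells with a UMI of either tumour gene held 6 of the T-cell (23.1%), 3 of the macrophage (12%) and 5 of the B-cell UMIs (25%). Such cells made up 9.95%, 11.99% and 8.45% of the 3 gates in that order. The B-cell UMIs lay 1 to a cell in 20 of 3931 cells.

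Most residual UMIs in host cells were single, but a few were not. In KO T cells 14 of 26 UMIs stood alone in a cell, 9 were in 1 cell and 3 in another, and in KO macrophages 18 of 25 stood alone and 5 were in 1 cell. The T cell with 9 Dusp2 UMIs had 3348 UMIs in all, with 3 of Cd3d and Cd3e and 0 of the tumour genes or of the Y-chromosome genes that mark the line. Neither of these cells has a barcode that is also in WT. Without them the log2 ratio, KO over WT, was -7.95 (-8.73 to -7.26) in T cells and -5.52 in macrophages, alternatives chosen after the data were seen.

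The residual level can be set beside that of tumour genes in the same KO cells. Dusp2 in KO T, NK, macrophage and B cells stood at 3.46%, 1.29%, 2.37% and 1.11% of its KO tumour-cell level. Across these gates Hmga2 stood at 0.600% to 0.991% of its tumour-cell level, Rhox5 at 0.930% to 1.03% and the keratin gene Krt8 at 0.414% to 1.33%. The RNA-binding protein gene Igf2bp2 stood at 1.78% in T, 2.76% in NK, 15.01% in macrophage and 1.76% in B cells, and Igf2bp3 at 33.7%, 34.2%, 12.04% and 75.5% in the same order. A UMI of Hmga2 or Rhox5 was present in 9.95% of KO T cells and 11.99% of KO macrophages. Cells with at least 3 UMIs of Hmga2 and Rhox5 were left out of these gates, which holds down the percentages of both genes. The 5 genes thus gave no single share of tumour RNA in host cells, and the part of tumour RNA in the residual UMIs was not tested.

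For co-detection, the thinned cells of a gate were split by whether they held a Dusp2 UMI, over genes with a mean of at least 50 CPM, and a gene was called at 1.5-fold. Likeness was Pearson's r of log2(1 + UMIs) across the cells of a gate, a description without p because all cells share a library and a depth. The cells with and without Dusp2 had originally had similar depths, with medians of 5425 and 5502 UMIs in WT T, 5316 and 5801 in NK, 8884 and 9240 in macrophage and 26770.5 and 27998 in tumour cells. Sparse counts hold r low, so the levels in the cells with and without Dusp2 are given beside it.

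In WT T cells those with Dusp2 carried more RNA of killer-cell genes. On average 518 cells held Dusp2 and 616 did not, and of 3402 genes 66 (1.94%) were at least 1.5-fold higher with Dusp2 and 131 (3.85%) at least 1.5-fold lower. Ccl5, a chemokine of cytotoxic and memory T cells, had the highest r, 0.32, at 4397 CPM with and 2167 CPM without Dusp2 (log2 1.02, 0.95 to 1.09). Nkg7, which aids granule release, followed (r 0.25, 1236 and 736 CPM), then Ctsw, a protease of killer cells (r 0.24, 487 and 276 CPM). Ly6c2, Ms4a4b, Ctla2a, the inhibitory lectin receptor Klrc1, Neurl3, Klre1 and Gramd3 completed the first 10, and the tenth and the eleventh, Prkch, differed little (r 0.187 and 0.185). All 10 were higher with Dusp2, by at least 0.53 on the log2 scale.

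The list of cytotoxic effectors went the same way, though it holds Ccl5 and Nkg7, which were picked by r in these cells. Of 13 measured, 8 were at least 1.5-fold higher with Dusp2 and 0 lower, and the median r was 0.10, against -0.004 over all genes. Prf1, the pore former, had 120 CPM with and 59.1 CPM without Dusp2, and Fasl, a death ligand, 113 and 57.1 CPM. Gzmb, the main killer granzyme, had r 0.04.

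The 5 lowest r in WT T cells belonged to Maf, Tnfrsf4, Actg1, Odc1 and Rora. Maf, a transcription factor of helper and gamma-delta cells, had 135 CPM with and 398 CPM without Dusp2 (r -0.23, log2 -1.56). Tnfrsf4, the co-stimulatory receptor OX40, had 286 and 759 CPM (r -0.23), and Actg1, a cytoskeletal actin, 3098 and 4264 CPM (r -0.21). Odc1, an enzyme of polyamine synthesis, had 764 and 1368 CPM (r -0.21) and Rora, which drives type 17 and innate-like programmes, 425 and 807 CPM (r -0.20). Il2ra, the interleukin 2 receptor of regulatory cells, was also lower with Dusp2, at 115 against 295 CPM.

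The kinds of T cell differed in the same direction. With Dusp2, 52.4% (47.9 to 56.7) of T cells were CD8 cells, against 28.1% (24.6 to 31.8) without it. Regulatory cells made up 4.57% of T cells with and 14.7% of those without Dusp2, and gamma-delta cells 8.66% and 20.1%. Within the 444 CD8 cells alone 16 of 3305 genes (0.484%) were at least 1.5-fold higher with Dusp2 and 26 (0.787%) lower, and the highest r was 0.15, for Smad7. These cells are among those that chose the 10 genes above, and there Ccl5 was at 0.12, Nkg7 at 0.04 and Ms4a4b at -0.03. Of the 5 lowest, Tnfrsf4 was at -0.10, Actg1 at -0.08, Rora at -0.003 and Odc1 at 0.03, and Maf was not measured there.

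In WT NK cells the highest r with Dusp2 belonged to Smad7, Tgfb1, Gzma, Nrarp and Eomes. On average 295 cells held Dusp2 and 101 did not, and 131 of 3308 genes (3.96%) were higher and 56 (1.69%) lower with Dusp2. Smad7, an inhibitor of TGF-beta receptors, had the highest r, 0.28, at 476 CPM with and 235 CPM without Dusp2 (log2 1.02, 0.58 to 1.51). Tgfb1, the ligand, had 911 and 508 CPM (r 0.26), and Pmepa1, another inhibitor of that pathway, 732 and 438 CPM (r 0.23).

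Gzma, a granzyme, had 3616 CPM with and 2369 CPM without Dusp2 (r 0.26), and Nrarp, a feedback inhibitor of Notch, 202 and 71.6 CPM (log2 1.49). Eomes, a transcription factor of conventional NK cells, had 407 and 210.0 CPM (r 0.24), and Runx3, Id2, Zfp36l2 and Ccl5 were also among the first 10. The tenth and the eleventh gene, Ttc39b, differed little (r 0.205 and 0.202). Among the 256 NK cells with an Eomes UMI, a choice made after the data were seen, Smad7 reached r 0.31. Gzma and Eomes stood at 0.17 and Ccl5 at 0.13 in these cells, which are among those that chose the 10 genes. There 196 of 3301 genes (5.94%) were higher and 115 (3.48%) lower, with only 52 cells lacking Dusp2.

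The cytotoxic list as a whole did not follow in NK cells. Of 14 measured, 1 was called higher (Gzma) and 2 lower, Gzmc at 1660 CPM with and 2736 CPM without Dusp2 and Gzme at 220 and 334 CPM, and the median r was -0.03 against 0.0004 over all genes. Among NK cells with an Eomes UMI neither Gzma (4459 CPM with and 3634 CPM without Dusp2) nor Gzmc (258 and 298 CPM) was called. Across all WT NK cells the lowest r belonged to Dennd4a (-0.27), a regulator of vesicle traffic, at 1048 and 1561 CPM. Fosb, an AP-1 subunit, had 67.8 CPM with and 168 CPM without Dusp2 (log2 -1.31, -2.01 to -0.61). Ifng, the main NK cytokine, had 138 and 274 CPM, though its r was near 0.

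In WT macrophages Dusp2 went with NF-kappaB and inflammatory genes, though weakly. On average 478 cells held Dusp2 and 3763 did not, and 23 of 3174 genes (0.725%) were higher and 24 (0.756%) lower. Nfkbia, the inhibitor that NF-kappaB itself induces, had r 0.15 at 3254 CPM with and 2250 CPM without Dusp2 (log2 0.53, 0.48 to 0.59). Il1b, the inflammatory cytokine, had r 0.15 at 7073 and 4208 CPM (log2 0.75, 0.71 to 0.79). Plac8, Gadd45b, Arl5c, Srgn, Socs3, Traf1, Clec4e and Hp made up the rest of the first 10, with r from 0.11 to 0.0927, and the eleventh, Chil3, had 0.0906.

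The lists showed the same split, though they hold genes already picked by r, Nfkbia, Il1b, Clec4e and C1qb among them. Of 17 NF-kappaB targets and early cytokines 16 had r above 0 (median 0.07), and of 17 inflammatory myeloid genes 16 (median 0.05), while 46.8% of all genes tested in the gate had r above 0 (median -0.001). At 1.5-fold 1 of each list was called higher, Bcl3 and Il1b. None of the 12 C1q macrophage genes had r above 0 (median -0.07), and 2 were called lower, Pf4 at 1065 CPM with and 1620 CPM without Dusp2 and Folr2 at 82.3 and 131 CPM. C1qb, a complement gene of resident-like macrophages, had 1675 and 2340 CPM (r -0.10), and the chemokine Ccl6 had the lowest r, -0.11.

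**Figure D3:**
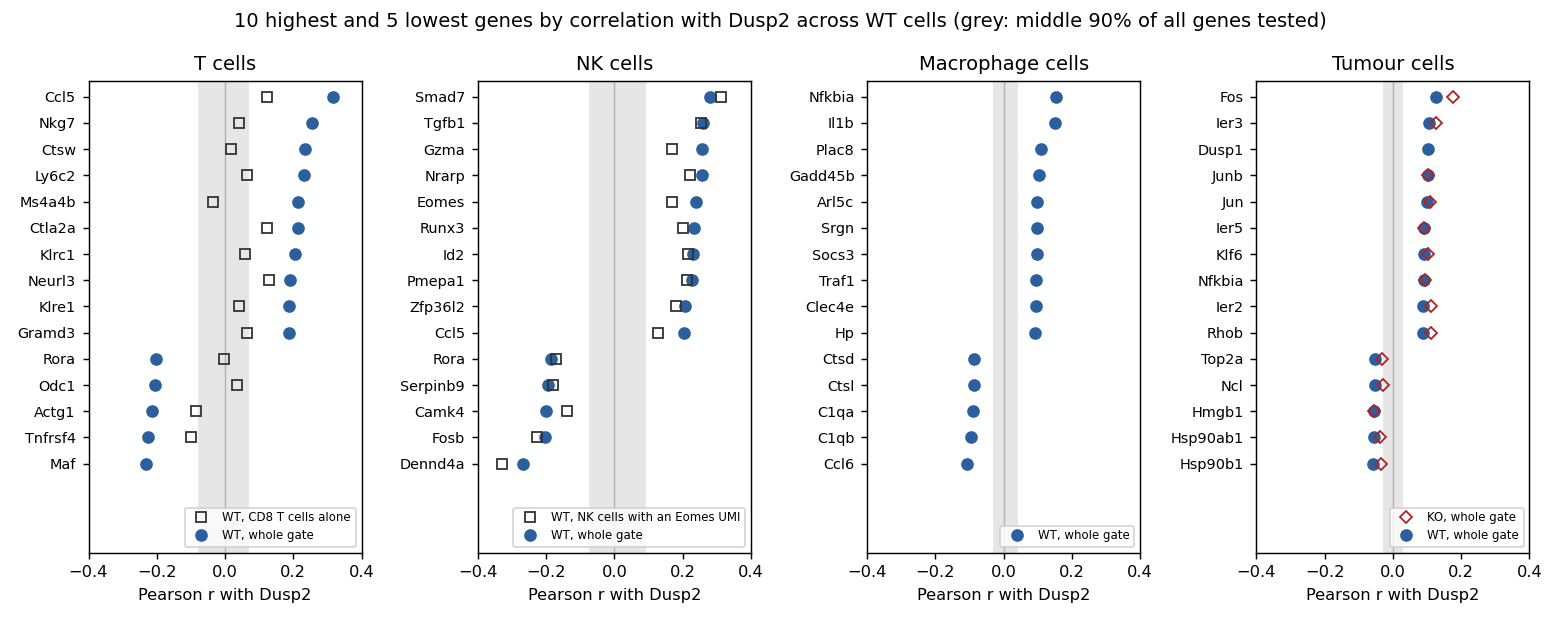
Pearson r with Dusp2 (x axis) of the 10 highest and 5 lowest genes in each WT gate, with r in CD8 cells alone, in NK cells with an Eomes UMI and in KO tumour cells where measured; grey marks the middle 90% of all genes tested. In CD8 cells alone the values for T cells move toward 0, Ccl5 to 0.12. In NK cells with Eomes, Smad7 is at 0.31 and Ccl5 at 0.13.

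In tumour cells of both libraries Dusp2 went with immediate-early genes. In KO tumour cells 183 on average held Dusp2 and 1184 did not, and 8 of 2861 genes (0.28%) were higher and 4 (0.14%) lower. In WT tumour cells 201 held Dusp2 and 1313 did not, and 8 of 3028 genes (0.264%) were higher and 0 (0%) lower. Fos, an AP-1 subunit, had the highest r in each library. In KO it stood at 525 CPM with and 164 CPM without Dusp2 (r 0.18, log2 1.68, 1.42 to 1.93), and in WT at 436 and 209 CPM (r 0.13, log2 1.06, 0.80 to 1.31).

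Other genes of the first 10 had small correlations, some closer between the libraries than others. Ier3, a stress-response gene, had 1947 CPM with and 1388 CPM without Dusp2 in KO (r 0.13), and 1431 and 1033 CPM in WT (r 0.11). Jun, the partner of Fos in AP-1, had 844 and 571 CPM in KO (r 0.11) and 890 and 610 CPM in WT (r 0.10). Atf3, a stress-induced transcription factor, had 334 and 169 CPM in KO (r 0.14, log2 0.98) and 290.2 and 204 CPM in WT (r 0.08, log2 0.51). Zfp36, which destabilises cytokine RNA, had 117 and 58.9 CPM in KO (r 0.11, log2 0.98) and 74.1 and 50.8 CPM in WT (r 0.05, log2 0.55, -0.06 to 1.14).

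The first 10 of each library shared 7 genes, Fos, Ier2, Ier3, Jun, Junb, Klf6 and Rhob, which is 7 of 10 of each list. Of the first 10 in WT, 9 were measured in KO, all but Dusp1, and these 9 had r of at least 0.05 there, as had 37 of all 2861 genes (1.29%). Of the immediate-early list, 16 of 16 measured genes in KO and 14 of 15 in WT had r above 0, with medians of 0.10 and 0.08, and 4 and 2 were called higher. Over all genes 39.7% in KO and 38.0% in WT had r above 0. The immediate-early list holds Fos, Ier3 and other genes already picked by r in these cells. In WT its median r is that of Klf2, the eleventh gene of the gate (0.0843). Each list member above that median was thus among the first 10, and the list values in large part restate that choice. The cell-cycle list went the other way in size but with no call, with r above 0 for 1 of 18 genes in KO and 0 of 16 in WT (medians -0.01 and -0.03).

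**Figure D4:**
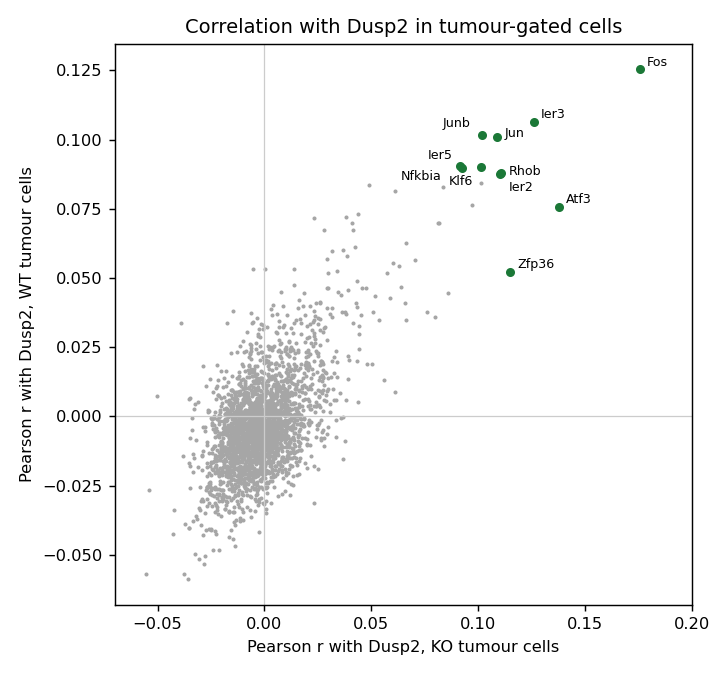
Pearson r with Dusp2 of each gene measured in tumour cells of both libraries, KO on the x axis and WT on the y axis; green points are named. Fos lies farthest out, at 0.18 in KO and 0.13 in WT, and most genes lie close to 0 in both.

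The first 10 genes by r differed between cell types. T and NK cells shared 1 of them (Ccl5) and macrophages and WT tumour cells 1 (Nfkbia), which is 1 of 10 of each list. Every other pair of gates shared 0. Only genes of at least 50 CPM in both gates could be shared. Nkg7 and Ctsw, for example, were under 50 CPM in WT macrophages and tumour cells. The overlap of unrelated lists was not worked out, and a cut at 10 hides near misses. Of the NK genes, Smad7, Zfp36l2, Runx3 and Pmepa1 ranked 18, 21, 30 and 32 of 3402 in WT T cells. Gzma ranked 78, Tgfb1 305 and Id2 1511 there, and Eomes and Nrarp were not measured. Of the WT tumour genes, Ier3, Ier2, Junb and Dusp1 ranked 13, 20, 52 and 134 of 3174 in macrophages. The others but Nfkbia ranked 764 to 3111 there. Fos had r -0.10 in WT T cells and -0.18 in WT NK cells, 0.005 in WT macrophages, and 0.18 and 0.13 in KO and WT tumour cells. In T cells Fos stood at 137 CPM with and 228 CPM without Dusp2, and in NK cells at 121 and 255 CPM. In macrophages it was 650 CPM in both, so Fos was lower, level and higher with Dusp2 in lymphocytes, macrophages and tumour cells. These differences between gates were not tested.

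Several partners rose or fell step by step with the number of Dusp2 UMIs. Ccl5, Smad7 and Il1b, and Fos in tumour cells, were picked by r in these same cells, so their rise restates that choice. The levels describe the same cells as r and add no separate support. In WT T cells with 0, 1, 2 and at least 3 Dusp2 UMIs, Ccl5 stood at 2167, 3965, 4396 and 5264 CPM, and Fos at 228, 163, 125 and 97.4 CPM. In WT NK cells with 0, 1, 2 to 3 and at least 4, Smad7 stood at 235, 326, 467 and 609 CPM, and Fos at 255, 181, 107 and 86.3 CPM. The direction was thus opposite for Fos and for the first partner in each lymphocyte gate. In WT macrophages with 0, 1 and at least 2, Il1b stood at 4208, 6629 and 8875 CPM and Fos at 650, 629 and 733 CPM. In WT tumour cells with 0, 1 and at least 2, Fos stood at 209, 326 and 964 CPM, the last from 34.6 cells on average.

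**Figure D5:**
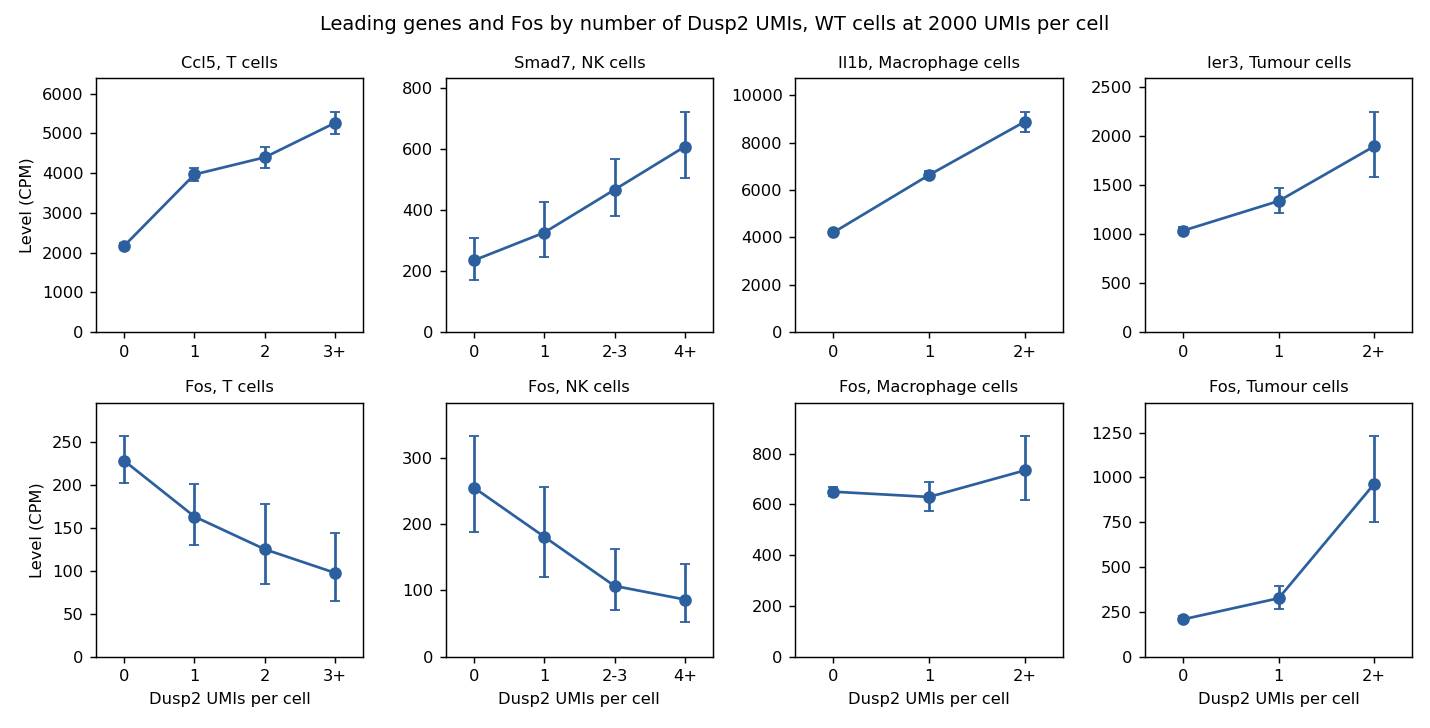
Level (CPM) of Fos and of a leading partner of Dusp2 (Ccl5, Smad7, Il1b or Ier3) in each WT gate by the number of Dusp2 UMIs per thinned cell, with 95% exact Poisson intervals. Ccl5 climbs to 5264 CPM in T cells with at least 3 Dusp2 UMIs while Fos drops to 97.4 CPM. The leading partners were picked by r in these same cells.

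Of the other MAP kinase phosphatases measured in the WT gates, Dusp1 in tumour cells was the only one called. Dusp1, which acts on p38 and JNK, had r -0.09 in WT T cells (152 CPM with and 218 CPM without Dusp2), -0.05 in NK cells, 0.04 in macrophages and 0.10 in WT tumour cells (99.3 and 52.1 CPM), where it ranked 3 of 3028 genes. Dusp5, a nuclear phosphatase of ERK, had r between 0.00 and 0.03 in all 4 WT gates, and in T cells 433 and 436 CPM. Within WT CD8 cells alone, however, Dusp5 had r 0.11, at 434 CPM with and 335 CPM without Dusp2, and Dusp1 had r -0.02. Dusp4 and Dusp6 were under 50 CPM in every gate. Mapk14, which encodes p38 alpha, had r 0.02 in T cells. None of the 5, 7, 6 and 5 MAP kinase genes measured in T, NK, macrophage and tumour cells of WT was called.

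Genes linked to NFAT, the calcium-driven factor of T-cell activation, were split. Of 13 measured in WT T cells, 1 was called higher with Dusp2, the orphan receptor Nr4a2 (207 CPM with and 138 CPM without), and 4 lower (Batf, Tox, Il2ra and Tnfrsf4), with a median r of -0.02. Over all genes of the gate 1.94% were higher and 3.85% lower, with a median r of -0.004. Nfatc1 itself had r 0.10 at 146 and 102 CPM. Within WT CD8 cells alone Nr4a2 was not called, at 239 CPM with and 219 CPM without Dusp2 (r 0.03). There Nfatc1 had 145 and 113 CPM, and Tnfrsf4 was still called lower, at 133 and 247 CPM. Pdcd1, which encodes PD-1, had r 0.03, Ifng 0.10 and the interferon-induced Isg15 -0.04 in T cells. Nr4a1, an immediate reporter of antigen receptor signalling in T cells, had r -0.04 there and 0.06 in macrophages, where it was called higher (132 and 81.4 CPM).

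The partners of Dusp2 were then compared between KO and WT. In T cells, where 76 of 3272 genes (2.32%) were at least 1.5-fold higher and 316 (9.66%) lower in KO, 0 of the first 10 were higher and 3 lower, with a median log2 ratio of -0.47 against -0.10 over all genes. Ccl5 had 1632 CPM in KO and 2893 CPM in WT T cells (log2 -0.83, -0.86 to -0.80), and Klre1 67.0 and 155 CPM (log2 -1.21). The makeup of the T gate differed in part. CD8 cells were a similar share, at 697 of 1809 KO and 449 of 1165 WT T cells. Of the same totals, CD4 cells were 382 in KO and 134 in WT, gamma-delta cells 80 and 172, and regulatory cells 117 in each. The part of this makeup in the ratios was not tested. In NK cells, where 92 of 3193 genes (2.88%) were higher and 325 (10.2%) lower in KO, 0 were higher and 2 lower, Smad7 at 230 CPM in KO and 373 CPM in WT and Nrarp at 81.8 and 139 CPM.

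In macrophages, where 17 of 3143 genes (0.541%) were higher and 57 (1.81%) lower in KO, none of the first 10 was called, with a median of -0.10 against -0.06. In tumour cells, where 25 of 2882 (0.867%) were higher and 120 (4.16%) lower, none was called either (median 0.12 against -0.003). Fos had 264 CPM in KO and 164 CPM in WT T cells (log2 0.69), 224 and 147 CPM in NK cells (log2 0.61), 653 and 645 CPM in macrophages, and 166 and 178 CPM in tumour cells. Other genes that were lower with Dusp2 across a whole gate had ratios of the opposite sign. Within WT CD8 cells alone, however, Rora (349 CPM with and 350 CPM without Dusp2) and Odc1 (485 and 473 CPM) were near level. In T cells the log2 ratio, KO over WT, was -0.88 for Rora, -0.64 for Odc1, -0.51 for Maf, -0.28 for Tnfrsf4 and -0.26 for Actg1, and in NK cells it was -0.68 for Fosb. The plasma-cell RNA given above differed between the libraries in the same gates, and its part in these ratios was not tested.

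The first 10 genes of each WT gate were also set against each other, pair by pair, in both libraries. Among the 45 pairs of the first 10 genes the median r was 0.26 in KO and 0.24 in WT T cells, with 43 and 45 pairs above 0. In NK cells it was 0.17 in KO and 0.16 in WT, in macrophages 0.18 in both, and in tumour cells 0.16 in both. These genes were picked by r with Dusp2 in the same WT cells, which by itself favours pairs above 0 there. Pairs of other genes were not measured beside them, so the medians have no background. The part of the mixture of cell kinds within a gate in these values was not tested.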

How the data were processed

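Both libraries were deposited as matrices of raw UMI counts per gene and barcode. The submitters' processing notes list mm10, Seurat (4.0.3 and 4.0.4) and Cell Ranger (6.0.1). The deposited matrices carry version 8.0.1 of that software in their headers. Strand setting and annotation release were not given in the sources used here.

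Cells needed 200 or more genes and no more than 20% of their UMIs from mitochondrial genes. Scrublet's own threshold, run through scanpy 1.11.5, called 0 KO and 128 WT cells, so the highest scores were left out at an expected 0.8% per 1000 cells in each library (1277 KO and 763 WT cells). Levels are a gene's summed UMIs per 1000000 UMIs of the gate (CPM) with 95% exact Poisson intervals, shares have Clopper-Pearson intervals, and ratios of levels the matching exact interval. All cover counting error only. Cells were thinned to 2000 UMIs 20 times and results averaged, and r was computed per draw. The step that computes r was tested on simulated data, and thinning removed the correlation that depth gives to unlinked genes. The gates, the gene and all 15 gene lists were chosen with earlier results of these data known. With 1 library per genotype no model was fitted. Named genes are, per WT gate, the 10 highest and 5 lowest by r, leaving out gate, mitochondrial, ribosomal, haemoglobin, immune receptor, sex-linked and predicted genes, then the 2 highest and the lowest of each list and 15 fixed genes, 1 of which is not reported here. Other list members that are named were called at 1.5-fold. Alternatives changed the cell filter, doublets, gate overlap, depth, random seed, expression minimum, Dusp2 threshold, correlation measure and T or NK subset. A further alternative left cells unthinned and regressed out the total UMIs of each cell.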

Additional observations from a re-analysis of the deposited data

Results flagged for a closer look

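Fos, an AP-1 subunit, differed in its relation to Dusp2 between cell types. Across WT T cells its r with Dusp2 was -0.101, and across WT NK cells -0.183, while it was 0.18 in KO and 0.13 in WT tumour cells. The signs were opposite in lymphocytes and tumour cells, and the difference was not tested because the cells of a gate share 1 library. Over all alternatives run, r of Fos lay between -0.149 and -0.0606 in WT T cells, between -0.281 and -0.125 in WT NK cells, between 0.0843 and 0.236 in KO tumour cells and between 0.0675 and 0.197 in WT tumour cells. The value -0.0606 is that of CD8 cells alone. There Fos had 103 CPM with and 129 CPM without Dusp2 (log2 -0.32), which is under the 1.5-fold call. Among NK cells with an Eomes UMI it had 126 and 338 CPM (r -0.22).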

How the results depend on the processing

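No paired analysis was possible because each genotype has 1 library. With cells in more than 1 gate kept, the log2 ratio of Dusp2, KO over WT, was -5.47 in T cells and -3.37 in macrophages. In KO 56.8% of the cells in more than 1 gate held a tumour-gene UMI, and the cause of the shift was not tested. Under the stricter filter and with no doublets left out, the ratios in the 4 gates stayed within their counting intervals. Shares of cells with Dusp2 follow depth: at 1000 and 4000 UMIs they were 7.09% and 23.5% in KO tumour cells, and in WT 30.6% and 61.3% of T cells, 57.4% and 86.1% of NK cells, 6.27% and 19.3% of macrophages and 7.27% and 23.1% of tumour cells.

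Counts of genes called at 1.5-fold depend on the settings. In WT T cells the number higher was 36 at 1000 UMIs, 104 with at least 2 Dusp2 UMIs, 128 with a minimum of 20 CPM and 37 with 100 CPM, and the number lower 254 and 66 at those minimums. In WT NK cells the number higher was 66 at 1000 UMIs, 304 at 4000 UMIs, 392 at 20 CPM and 65 at 100 CPM. The number lower was 181 with cells in more than 1 gate kept, 122 at 4000 UMIs, 116 with at least 2 Dusp2 UMIs, 220 at 20 CPM and 18 at 100 CPM. In WT macrophages the number higher was 90 with at least 2 Dusp2 UMIs, 36 at 20 CPM and 14 at 100 CPM, and the number lower 127 and 61 at the first pair of these.

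In KO tumour cells the number higher was 5 with cells in more than 1 gate kept, 17 at 1000 UMIs, 133 with at least 2 Dusp2 UMIs, 13 at 20 CPM and 5 at 100 CPM, and the number lower 9, 8, 60, 11 and 0. In WT tumour cells the number higher was 5 with no doublets left out, 74 with at least 2 Dusp2 UMIs, 18 at 20 CPM and 4 at 100 CPM. The number lower was 1 under the stricter filter, 1 with no doublets left out, 3 with cells in more than 1 gate kept, 10 at 1000 UMIs, 138 with at least 2 Dusp2 UMIs and 11 at 20 CPM. The cause of these shifts was not tested, beyond the smaller or larger number of genes that another minimum lets in.

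Of 262 correlations of named genes, 70 had a size of at least 0.1, and 4 of these changed sign, each among CD8 T cells alone: Ms4a4b -0.0344, Xcl1 -0.0517, Srgn 0.00635 and Odc1 0.0338, against 0.21, 0.11, -0.16 and -0.21 in all WT T cells. Across thinning depth, seeds, filter, doublets and gate overlap, 7 to 10 of the first 10 genes of each WT gate stayed among its first 10. From 1000 to 4000 UMIs per cell the lowest r of the first 10 genes moved from 0.112 to 0.264 in WT T cells and from 0.0484 to 0.113 in WT tumour cells. The size of r was thus less steady than its sign. Over all alternatives r of Ctsw in WT T cells ran from 0.018 to 0.426, and of Nfkbia in WT macrophages from 0.105 to 0.252.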
